A study of Mus musculus with 42 samples.

Results

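H2bc4, H2bc21 and H2bc12 are mouse genes for histone H2B, and they are 3 of the 55401 genes listed in each of the 42 libraries examined. They were taken by symbol from a larger set because their transcripts were higher with RECTAS than with DMSO in these same libraries, so that difference is given below as a description with no test. RECTAS is a small molecule known for changing the splicing of certain pre-mRNAs. The libraries came from 7 mouse tumour cell lines, each treated for 6 h either with 10 µM RECTAS in 0.1% DMSO or with 0.1% DMSO alone, with 3 libraries per line and treatment. The lines were B16 (melanoma), CT26 and MC38 (both colorectal), EG7 (a lymphoma that carries an ovalbumin gene), LLC (lung carcinoma), Pan02 (pancreatic adenocarcinoma) and WEHI3 (a myelomonocytic leukaemia). Every control library thus also received the DMSO vehicle. Nothing in the labels states whether the 3 libraries per group are separate cultures, so every SD and p-value covers the spread among those libraries alone, and that spread may be technical.

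Histone H2B is one of the core histones, and it pairs with H2A in the nucleosome around which DNA is wound. Most H2B genes are replication-dependent: their transcripts are made in S phase, end in a short stem-loop that the stem-loop binding protein recognises, and carry no poly(A) tail. Some of these genes can also yield longer transcripts with a poly(A) tail, which are known from cells that have left the cell cycle. The libraries were made from polyadenylated RNA, so a stem-loop-ended transcript without a tail would be captured poorly, and the levels below refer to what such a library captures.

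The 3 genes encode the same core histone but differ in how their annotated transcripts end, and the following stretches are shown because they decide which reads can be told apart and which 3′ end each transcript carries. Sequences were read from GENCODE M21 transcripts, which use the GRCm38 build that the submitters' processing notes name, and all are on the plus strand. The first 75 coding bases of each gene are given with capitals at the 16 positions where the 3 genes are not identical. H2bc4 and H2bc12 differ at 1 of these 75 bases, H2bc4 and H2bc21 at 16, and H2bc21 and H2bc12 at 15.
H2bc4: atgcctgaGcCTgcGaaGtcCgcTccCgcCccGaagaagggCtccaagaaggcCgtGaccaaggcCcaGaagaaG
H2bc21: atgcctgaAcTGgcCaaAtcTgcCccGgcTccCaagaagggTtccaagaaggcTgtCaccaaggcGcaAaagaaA
H2bc12: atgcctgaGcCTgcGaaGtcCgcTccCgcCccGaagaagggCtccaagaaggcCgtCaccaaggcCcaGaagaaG

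The ends of the transcripts are shown next. H2bc12 has a histone stem-loop (in capitals: a 6-base stem that starts GG, a 4-base loop that starts TTT, and the reverse complement of the stem), at chr13:22036293-22036322, and so have H2bc11, at chr13:22043631-22043660, and H2bc8, at chr13:23571836-23571865, which are given for comparison as the other H2B genes with this structure and the highest DMSO levels. No such structure was found in the transcripts of H2bc4 or H2bc21. For H2bc4 the end of exon 1, at chr13:23684598-23684621, is shown with the stop codon in capitals. For H2bc21 the last 30 bases of the transcript, at chr3:96223709-96223738, are shown with the AATAAA polyadenylation signal in capitals.
H2bc12 stem-loop: caccaaaGGCTCTTTTAAGAGCCactaaac
H2bc11 stem-loop: atccaaaGGCTCTTTTCAGAGCCacgcaca
H2bc8 stem-loop: acccaaaGGCTCTTTTCAGAGCCacccata
H2bc4 end of exon 1: accagctccaagTGAtcctgccaa
H2bc21 transcript end: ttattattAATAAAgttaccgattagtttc

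H2bc4 (ENSMUSG00000018102, named Hist1h2bc in M21) spans chr13:23684199-23692908 and is annotated with 2 exons. Its coding sequence lies whole in exon 1, which runs on for 9 bases past the stop codon. An intron of 7554 bases follows, and the spliced transcript of 1156 bases has a 3′ UTR of 742 bases, most of it in exon 2. H2bc21 (ENSMUSG00000068854, Hist2h2be) spans chr3:96221119-96223738 as 1 exon of 2620 bases with a 3′ UTR of 2192 bases, and its last AATAAA is followed by 16 bases. H2bc12 (ENSMUSG00000062727, Hist1h2bk) spans chr13:22035870-22036345 as 1 exon of 476 bases with a 3′ UTR of 78 bases and no AATAAA. The only AATAAA in the H2bc4 transcript is followed by 441 bases. The stem-loop was found in the annotated transcripts of 10 of the 20 H2B genes of the files and of 0.142% of the 55450 genes of the annotation. Only annotated transcripts were searched, so a gene without a match may still have the structure. Those of H2bc13, H2bc15 and H2bc18 have 381 bases, hardly more than the 378 coding bases. Thus, of the 3 genes, H2bc4 and H2bc21 have long annotated transcripts in which no stem-loop was found. H2bc12 has the compact form usual for a replication-dependent histone gene. Long transcripts with no stem-loop found are not particular to these members. Hist1h2br and Hist1h2bq have them too, with longest transcripts of 2197 and 2015 bases. In H2bc12, H2bc11 and H2bc8 the stem-loop begins 32, 27 and 29 bases after the stop codon. In H2bc4 that position lies in the intron, past the 9 bases that exon 1 holds after its stop codon. The intron was not searched, so whether H2bc4 can also yield a stem-loop-ended transcript was not tested.

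**Figure D1:**
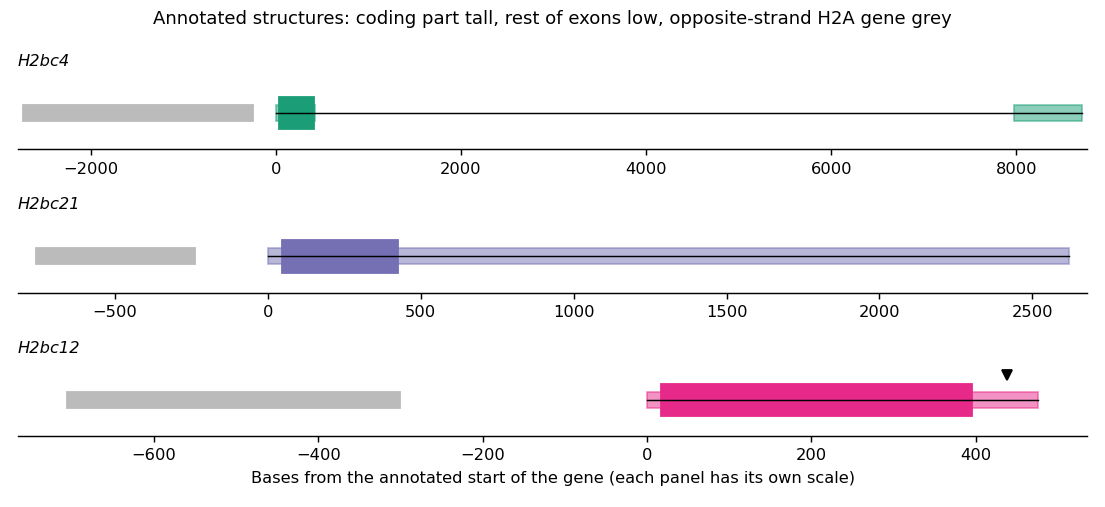
Annotated structure of the 3 genes, with the distance in bases from the annotated gene start on the horizontal axis and a separate scale for each panel. Tall boxes are the coding part, low boxes the rest of the exons, the line in H2bc4 its intron of 7554 bases, the triangle the stem-loop of H2bc12, and grey boxes the H2A gene on the opposite strand.

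The transcripts differ in how many reads could be placed on them alone. None of the 50-base words of H2bc21 occurred in another annotated gene. For H2bc4, 29.4% of its words occurred in at least 1 other H2B gene and a further 1.27% in other genes only, while its long 3′ UTR leaves most of the transcript distinct. For H2bc12, 74.2% of its words were shared with H2B genes, 14 of them in all. Over the 378 coding bases H2bc12 was 98.15% identical to H2bc4 and 87.57% to H2bc21. The H2bc12 level is therefore uncertain, because the authors' counting had to divide reads among near-identical copies.

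A RefSeq promoter window (GRCm38.p6, 250 bases before to 50 after the start) was found for 1 of the 3 genes, H2bc12, at chr13:22035571-22035870 on the plus strand, and it is given because the octamer and CCAAT motifs are known from histone promoters. Capitals mark the matches of ATTTGCAT, CCAAT and TATAAA, searched on both strands.
H2bc12 promoter: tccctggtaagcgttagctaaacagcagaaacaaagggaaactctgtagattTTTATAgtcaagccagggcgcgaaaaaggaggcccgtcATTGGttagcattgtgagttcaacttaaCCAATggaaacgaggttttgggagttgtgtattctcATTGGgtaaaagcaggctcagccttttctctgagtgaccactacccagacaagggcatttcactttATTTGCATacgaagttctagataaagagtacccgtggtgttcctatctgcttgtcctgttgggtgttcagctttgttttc
ATTTGCAT, the octamer, matched 1 time, 30 bases before the start, and 1.74% of the 32851 windows of the table and 6 of 14 H2B windows hold it. CCAAT matched 3 times, and it is in 37.4% of all windows and in 14 of 14 H2B windows. TATAAA matched 1 time, in the reverse direction 198 bases before the start, and is in 13.6% of all windows. Distances are counted from the RefSeq start, which lies upstream of the M21 gene start, the last base of this window. These matches are letters in a window and were not tested for binding.

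The files give TPM, a transcript level scaled to transcript length and to a fixed sum per library, so levels can be compared between genes but the depth is unknown. Each library summed to between 999998 and 1000003 TPM and listed 11001 to 12205 genes at 1 TPM or more. The correlation of log2(TPM + 1) between libraries of a group lay between 0.9952 and 0.9971 over 42 pairs. In the DMSO libraries, 6 of 6 melanocyte markers reached 1 TPM in B16, 5 of 6 T lymphoid markers in EG7, 5 of 6 myelomonocytic markers in WEHI3, and 4 of 6 epithelial markers in Pan02. Of the epithelial markers, 2 of 6 reached it in LLC and 0 of 6 in CT26 and MC38, although both are labelled colorectal carcinomas. Of 5 mesenchymal markers, 5 reached 1 TPM in B16 and CT26, 4 in LLC and Pan02, and 3 in MC38. Only Vim did in EG7 and WEHI3. The mesenchymal list summed to 5629 TPM in CT26 and to 2663 TPM in Pan02. Markers of other lists were also present. WEHI3 had Thy1 and Lck of the T lymphoid list, which summed to 2200 TPM there and to 1474 TPM in EG7. Cd68 of the myelomonocytic list reached 1 TPM in 7 of 7 lines, with a list sum of 808 TPM in B16, Mlana reached it in EG7 (melanocyte list sum 32.2 TPM), and CT26 had Thy1, Lck and Mpo (list sums of 4.23 and 7.36 TPM). Their part in the results was not tested.

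Without RECTAS, H2bc4 had the widest range between lines of the 3 genes. Its DMSO mean was 99.2 ± 5.31 TPM (SD, n = 3) in Pan02 and 27.1 ± 0.555 TPM in LLC, the highest levels. The mean was 13.5 TPM in WEHI3, 6.01 ± 0.628 in MC38, 5.42 ± 0.447 in CT26 and 3.73 ± 0.666 in B16. EG7 had the lowest level, 0.877 ± 0.146 TPM, and the Pan02 mean was 113 times as high. The 7 line means of H2bc4 differed in an F-test with limma on log2(TPM + 1) (adjusted p = 2.79e-18). Of all 13525 genes that averaged 1 TPM or more in the DMSO libraries, 98.1% passed that test, so passing it sets no gene apart. In pairs of lines, H2bc4 differed in 20 of 21, where 77.8% of all tests of a gene in a pair of lines passed, from 73.4% to 81.6% by pair. The exception was MC38 against CT26, neighbours in the order (adjusted p = 0.266, limma). In bulk libraries like these, fewer cells that express a gene and less of its RNA per cell cannot be told apart.

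H2bc21 was also highest in Pan02, at 16.2 ± 0.837 TPM, but B16 came next at 8.40 ± 0.281 TPM. LLC followed at 4.74 ± 0.304 and WEHI3 at 2.72 ± 0.0987 TPM. CT26, MC38 and EG7 lay lowest, at 1.93 ± 0.142, 1.82 ± 0.0404 and 1.09 ± 0.115 TPM, and the highest mean was 14.8 times the lowest. The line means differed (F-test with limma, adjusted p = 1.82e-18), and 20 of 21 pairs of lines did, all but CT26 against MC38 (adjusted p = 0.422). B16 thus came directly after Pan02 for H2bc21, while for H2bc4 only EG7 was lower than B16.

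H2bc12 followed another order and a narrower range. MC38 had the highest DMSO mean, 7.23 ± 2.28 TPM, and B16 the lowest, 0.890 ± 0.168 TPM, a ratio of 8.13. Between them lay WEHI3 at 4.42 ± 1.37, LLC at 3.36 ± 0.487, Pan02 at 2.75 ± 0.474, CT26 at 2.59 ± 0.0699 and EG7 at 2.44 ± 0.0264 TPM. The line means differed (F-test with limma, adjusted p = 2.19e-07), as did 14 of 21 pairs. Among neighbours in the order, MC38 differed from WEHI3 (adjusted p = 0.00510) and EG7 from B16 (adjusted p = 0.000254), and the neighbours from WEHI3 down to EG7 did not differ beyond their spread. Pan02, where H2bc4 and H2bc21 were highest, lay in the middle of the order for H2bc12. Over the 7 DMSO line means of log2(TPM + 1), Pearson's r was 0.735 between H2bc4 and H2bc21, 0.187 between H2bc4 and H2bc12, and -0.421 between H2bc21 and H2bc12, as a description over 7 points.

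**Figure D2:**
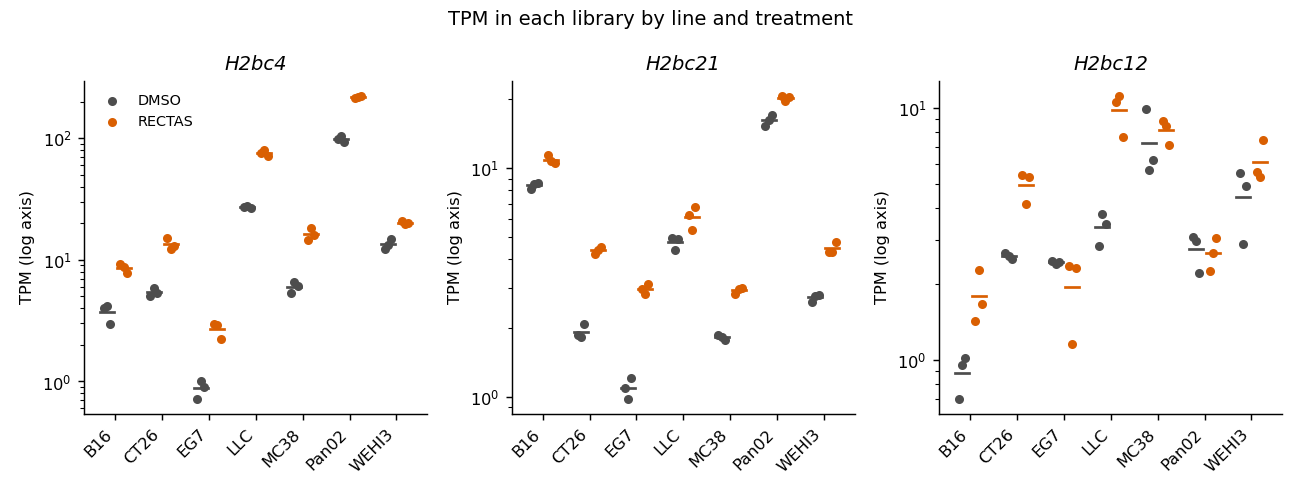
TPM of H2bc4, H2bc21 and H2bc12 in each of the 42 libraries (log axis, a separate scale for each gene), by line, with DMSO in grey and RECTAS in orange; points are libraries and short lines are means of 3. For H2bc4 and H2bc21 the orange points lie above the grey ones in all 7 lines, and for H2bc12 in B16, CT26 and LLC only.

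H2bc4 was higher with RECTAS in each line, and the 3 RECTAS libraries lay above the 3 DMSO libraries in 7 of 7 lines. In Pan02 the DMSO libraries had 99.4, 104.5 and 93.8 TPM and the RECTAS libraries 215.9, 220.8 and 222.2 TPM. In LLC the level was 27.3, 27.5 and 26.5 TPM with DMSO and 75.9, 80.6 and 71.4 TPM with RECTAS. WEHI3 had 12.3, 13.4 and 14.9 TPM with DMSO and 20.8, 19.9 and 20.1 TPM with RECTAS. In these 3 lines with the highest baseline, every RECTAS library stood clear of the DMSO group, with the smallest gap in WEHI3. MC38 had 5.33, 6.57 and 6.12 TPM with DMSO and 14.5, 18.4 and 15.98 TPM with RECTAS. CT26 went from 5.00, 5.89 and 5.37 TPM with DMSO to 15.1, 12.4 and 13.1 TPM with RECTAS. B16 had 4.01, 4.21 and 2.97 TPM with DMSO and 9.22, 8.80 and 7.84 TPM with RECTAS. In MC38, CT26 and B16 too, the RECTAS libraries did not overlap the DMSO libraries of the line. EG7, the line with the least H2bc4, had 0.72, 1.01 and 0.90 TPM with DMSO and 2.97, 2.90 and 2.22 TPM with RECTAS, again with no overlap.

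As a mean over the 7 lines, H2bc4 was at 22.3 TPM with DMSO and 51.0 TPM with RECTAS, a ratio of 2.29. The mean within-line difference was 1.09 on the log2(TPM + 1) scale (SE 0.036), second in size among the 13501 genes that averaged 1 TPM or more over all libraries. The ratio of RECTAS to DMSO means ranged from 1.501 in WEHI3 to 3.08 in EG7, with a median of 2.49. The difference in level ran from 1.82 TPM in EG7, which had the lowest baseline, to 120.5 TPM in Pan02, which had the highest. For comparison, 0.365% of 8775 genes averaging 1 TPM or more in every line had all RECTAS libraries above all DMSO libraries in each of the 7 lines, 32 genes in number. By line the share was 14.9% in EG7, 11.0% in MC38, 10.4% in Pan02 and 7.59% in WEHI3, and those of the other lines follow below. H2bc4 and H2bc21 are among these, and since the genes were chosen on this contrast nothing is read from it.

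H2bc21 was higher with RECTAS in all 7 lines too, with a smaller ratio than H2bc4 in each line except WEHI3, where it was 1.64 beside 1.501. In EG7 it had 1.09, 0.98 and 1.21 TPM with DMSO and 2.96, 2.82 and 3.12 TPM with RECTAS. CT26 showed 1.86, 1.83 and 2.09 TPM with DMSO and 4.22, 4.37 and 4.50 TPM with RECTAS. These were the lines with the largest ratios, 2.71 and 2.26, and their groups were far apart. WEHI3 had 2.61, 2.77 and 2.79 TPM with DMSO and 4.29, 4.30 and 4.77 TPM with RECTAS. In MC38 the values were 1.86, 1.83 and 1.78 TPM with DMSO and 2.81, 2.96 and 3.0 TPM with RECTAS. The ratio was 1.64 in WEHI3 and 1.60 in MC38, and the groups did not overlap in either line. B16 had 8.08, 8.51 and 8.61 TPM with DMSO and 11.4, 10.7 and 10.5 TPM with RECTAS. Pan02 had 15.3, 16.3 and 17.0 TPM with DMSO and 20.6, 19.6 and 20.4 TPM with RECTAS. LLC had 4.94, 4.39 and 4.89 TPM with DMSO and 6.22, 5.36 and 6.77 TPM with RECTAS. In these 3 lines, which have the highest baselines of H2bc21, the ratios were the lowest, 1.295, 1.25 and 1.29, and the groups still did not overlap. The mean over lines was 5.27 TPM with DMSO and 7.42 TPM with RECTAS, a ratio of 1.41, and the mean within-line difference was 0.54 (log2 scale, SE 0.022).

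H2bc12 did not show 1 direction in all lines. In LLC it had 2.83, 3.79 and 3.45 TPM with DMSO and 10.5, 11.1 and 7.66 TPM with RECTAS, the largest ratio at 2.91. CT26 had 2.66, 2.59 and 2.52 TPM with DMSO and 5.40, 4.14 and 5.30 TPM with RECTAS. B16 had 0.70, 0.95 and 1.02 TPM with DMSO and 1.42, 2.28 and 1.66 TPM with RECTAS. In these 3 lines the RECTAS libraries all lay above the DMSO libraries, which was the case for 3.92% of genes in LLC, 15.0% in CT26 and 8.37% in B16. EG7 had 2.46, 2.41 and 2.45 TPM with DMSO and 2.35, 1.16 and 2.31 TPM with RECTAS. There all RECTAS libraries lay below the DMSO libraries, as for 11.1% of genes in EG7, but by a small margin except in replicate 2, and the difference of -0.26 on the log2 scale was -0.05 without that library. MC38 had 9.85, 5.67 and 6.18 TPM with DMSO and 8.85, 8.47 and 7.13 TPM with RECTAS. WEHI3 had 5.49, 2.88 and 4.90 TPM with DMSO and 5.54, 5.33 and 7.48 TPM with RECTAS. Pan02 had 3.08, 2.97 and 2.21 TPM with DMSO and 2.26, 2.66 and 3.03 TPM with RECTAS. The groups overlapped in MC38, WEHI3 and Pan02, and in Pan02 the sign of the difference changed when single libraries were left out (-0.15 to 0.041). Leaving out single libraries moved the difference between 0.047 and 0.40 in MC38 and between 0.19 and 0.56 in WEHI3. The mean over lines was 3.38 TPM with DMSO and 5.05 TPM with RECTAS, with a mean within-line difference of 0.41 (log2 scale, SE 0.069).

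**Figure D3:**
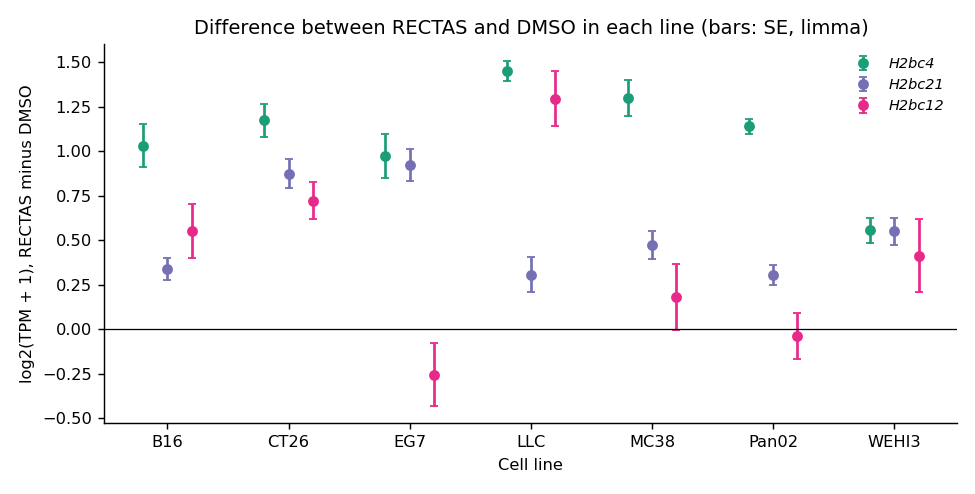
Difference between RECTAS and DMSO means of log2(TPM + 1) in each line (vertical axis, log2 units) for H2bc4, H2bc21 and H2bc12; points are differences of 3 against 3 libraries and bars their SE from limma. H2bc4 lies between 0.56 in WEHI3 and 1.45 in LLC, H2bc21 between 0.30 and 0.92, and H2bc12 between -0.26 in EG7 and 1.297 in LLC.

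The size of the difference varied between lines, and since the genes were chosen on the rise with RECTAS in these lines, this spread is described with no test. For H2bc4 the largest minus the smallest within-line difference was 0.90 on the log2(TPM + 1) scale. It was 0.48 without WEHI3, which had the smallest difference (0.56, SE 0.069). For H2bc12 it was 1.55, and 0.98 without LLC, which had the largest difference (1.297, SE 0.15). For H2bc21 it was 0.62, with differences of 0.92 (SE 0.092) in EG7 and 0.87 (SE 0.082) in CT26 against 0.30 to 0.34 in Pan02, LLC and B16. Differences on the log2(TPM + 1) scale are understated at low levels, which bears most on H2bc4 and H2bc21 in EG7 and on H2bc12 in B16. With a pseudocount of 0.1 in place of 1, the H2bc4 difference in EG7 was 1.52, above the 1.48 of LLC, and that of H2bc12 in B16 was 0.92 in place of 0.55. The H2bc21 spread between lines was then 1.04.

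The 3 genes held different shares of all H2B transcripts captured. Summed over the 20 H2B genes, the level was 141 ± 6.00 TPM with DMSO and 269.6 ± 3.81 TPM with RECTAS in Pan02 (n = 3 each), and H2bc4 held 70.3% ± 0.953 and 81.5% ± 0.857 of it. In LLC the sum was 51.5 ± 2.24 TPM with DMSO and 110.5 ± 7.47 TPM with RECTAS, with H2bc4 shares of 52.7% ± 1.73 and 68.8% ± 0.981. In MC38 the H2bc4 share was 12.4% ± 2.05 with DMSO and 26.7% ± 2.02 with RECTAS. In EG7 it was 5.29% ± 1.36 with DMSO and 12.2% ± 1.91 with RECTAS, the lowest share of any line. B16 was the line in which H2bc21 held the largest share, 43.9% ± 2.12 with DMSO and 39.5% ± 1.17 with RECTAS. In WEHI3 the H2bc4 share was 52.5% ± 5.79 and 54.1% ± 3.24, a difference within the spread between libraries. Because shares of 1 sum depend on each other, they carry no test here.

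**Figure D4:**
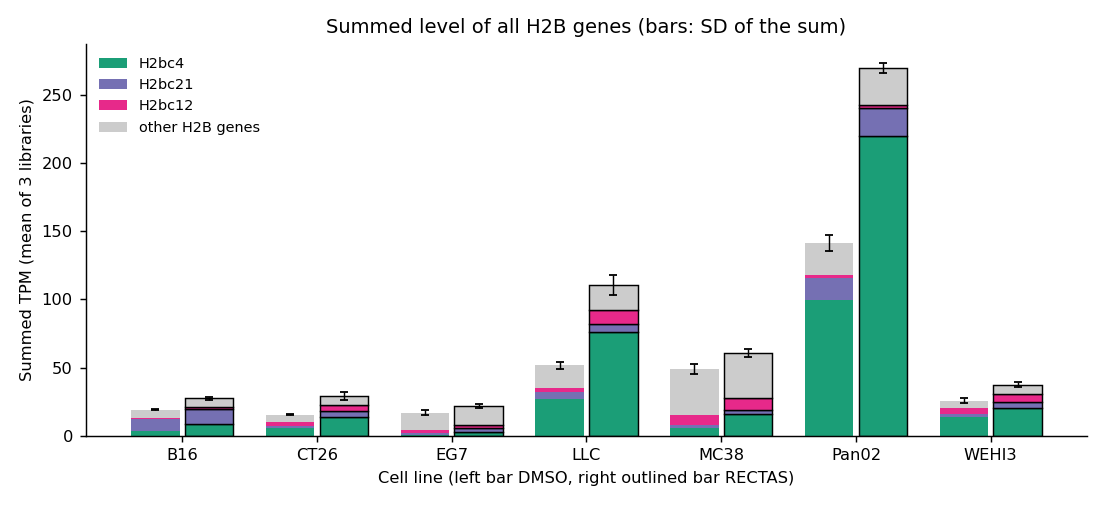
Summed TPM of all 20 H2B genes in each line (vertical axis), as means of 3 libraries, with the DMSO bar on the left and the outlined RECTAS bar on the right; colours give the 3 genes and grey the other 17, and error bars are the SD of the sum. The grey part is 33.9 and 33.5 TPM in MC38 and 23.0 and 27.1 TPM in Pan02, while the H2bc4 part is larger with RECTAS in every line.

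The other H2B genes that passed the filter on low values were not called. The summed level of the 17 H2B genes other than the members was 33.9 ± 2.05 TPM with DMSO and 33.5 ± 0.896 TPM with RECTAS in MC38, 6.14 ± 0.854 and 6.24 ± 0.110 TPM in B16, and 23.0 ± 0.760 and 27.1 ± 3.21 TPM in Pan02. In EG7 it was 12.5 ± 2.09 TPM with DMSO and 14.5 ± 0.728 TPM with RECTAS. The mean of this sum was higher with RECTAS in 6 of 7 lines, all but MC38. Of the 17 other H2B genes, 5 averaged 1 TPM or more, and 0 of the 5 passed the test of the mean within-line difference in limma (0 of 5 at an unadjusted p under 0.05 as well), where 7.61% of all 13501 genes were called higher and 14.5% lower. The median difference of these 5 was 0.017 on the log2 scale, beside -0.0069 over all genes. H2bc11, the most abundant of them, was at 23.0 ± 1.56 TPM with DMSO and 23.6 ± 0.956 TPM with RECTAS in MC38, and its mean difference was 0.021 (SE 0.059). H2bc8 (0.0092), H2bc3 (0.017), H2bc14 (-0.094) and H2bc13 (0.21, SE 0.16) did not pass either. H2bc9 was below the filter at a mean of 0.554 TPM with DMSO and 0.860 TPM with RECTAS. When no filter was set, it was the only other H2B gene called higher (difference 0.19, SE 0.028, adjusted p = 1.22e-05 over 33852 genes, limma), with a higher mean in 7 of 7 lines and no overlap in MC38 and Pan02. Its annotated transcript has 1679 bases and holds the stem-loop. Hist1h2bq, which differs from H2bc4 at 2 of 378 coding bases, did not pass in that setting (difference 0.13, SE 0.055, adjusted p = 0.184, unadjusted p = 0.0269, limma). Its RECTAS libraries lay above its DMSO libraries in LLC (0.18 and 0.90 TPM) and in Pan02 (0.707 and 1.15 TPM). With coding bases so near those of H2bc4 its level may be uncertain, but its shared words were not counted. Of genes averaging 1 TPM or more in the line, 3.92% in LLC, 10.4% in Pan02 and 11.0% in MC38 lay above in this way. All RECTAS libraries lay below for H2bu1-ps in B16, H2bc14 and H2bu2 in Pan02 and H2bc8 in MC38. That was so for 26.5%, 13.4% and 11.4% of such genes in these lines. The genes averaging at least 1 TPM over both treatments in some line, H2bc6, H2bc7, H2bc15, H2bc18, H2bu2 and Hist1h2bp, had a mean difference within 0.11 of 0 with no filter set and did not pass.

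**Figure D5:**
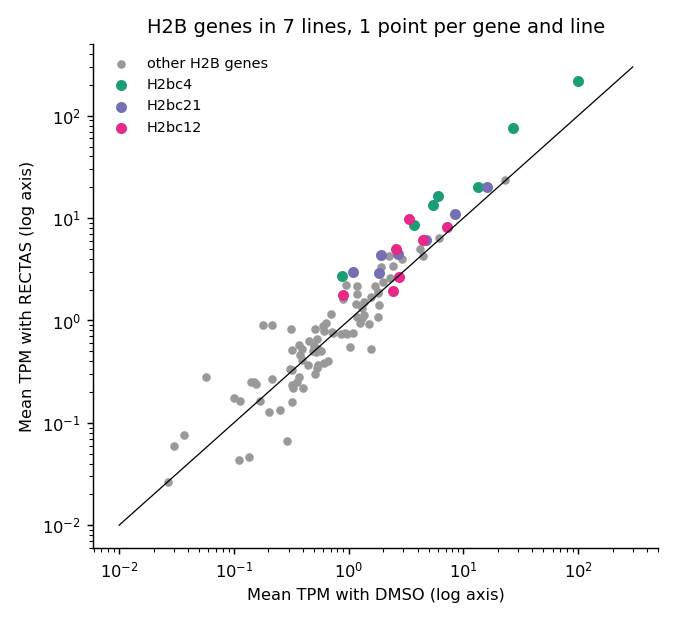
Mean TPM with RECTAS against mean TPM with DMSO (both log axes) for every H2B gene, 1 point per gene and line where both means are above 0; the line marks equal levels. The points of H2bc4 and H2bc21 lie above the line, those of H2bc12 on both sides of it, and the other genes scatter around it, more widely at low levels.

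Each of the 3 genes has an H2A gene on the opposite strand just upstream, as is common in histone clusters. H2ac6 lies 250 bases from H2bc4 and H2ac20 lies 238 bases from H2bc21, and H2ac12 is the partner of H2bc12. All were captured at low levels. H2ac6 was at 0.189 TPM with DMSO and 0.226 TPM with RECTAS as a mean over lines, H2ac20 at 0.672 and 0.783 TPM, and H2ac12 at 0.356 and 0.602 TPM. They were below 1 TPM and not tested over lines. The RECTAS libraries of H2ac6 lay above the DMSO libraries in B16 and CT26, those of H2ac20 in EG7, and those of H2ac12 in 0 lines. Among genes averaging 1 TPM or more in the line, this was so for 8.37% in B16, 15.0% in CT26 and 14.9% in EG7. The H2ac6 means were near 0, at 0.040 and 0.10 TPM in B16 and 0.013 and 0.047 TPM in CT26 (DMSO and RECTAS). Nothing is read from these cases.

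Among the other replication-dependent histone genes, 21 of 49 were tested, 2 were called higher and 0 lower, beside 7.61% higher and 14.5% lower of all genes, with a median difference of 0.062 on the log2 scale. The 2 were H1f2, a linker histone (from 16.3 to 17.4 TPM, 0.15, SE 0.028, adjusted p = 0.000104, limma), and H4c9, a histone H4 gene (0.13, SE 0.034, adjusted p = 0.00554). For H1f2 the difference was unequal between lines (F-test with limma, adjusted p = 0.00881), as for 5.61% of all genes. H3c13 missed the threshold (-0.25, adjusted p = 0.103). Of the 9 histone genes whose mRNA is polyadenylated outside S phase, H2ax, the variant phosphorylated at DNA breaks, rose in 7 of 7 lines from 101.3 to 108 TPM (0.13, SE 0.014, adjusted p = 7.85e-09). Macroh2a2, a large H2A variant, was called lower (-0.065, adjusted p = 0.0484), but under 38 of 57 other settings the list had no lower call. The other 7 did not pass, and the list's median was 0.016.

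The list for histone mRNA 3′ end processing also holds genes with other roles, such as the cap-binding subunits. Of its 12 tested genes, 3 were called higher and 1 lower, and the median was 0.032. Of all genes, 7.61% were called higher and 14.5% lower. Ncbp2, the small subunit of the nuclear cap-binding complex, rose in 7 of 7 lines from 66.4 to 77.2 TPM (0.22, SE 0.014, adjusted p = 2.32e-13, limma). Cpsf3, the endonuclease that cuts histone and other pre-mRNAs (0.036, adjusted p = 0.0134), and Cstf2 (0.056, adjusted p = 0.0183) were also called higher. Eri1, an exonuclease that trims histone mRNA ends, was called lower (-0.094, adjusted p = 0.0498), but under 39 of 57 other settings no gene of the list was. Slbp, the stem-loop binding protein, did not pass (89.3 and 92.0 TPM, 0.041, adjusted p = 0.342), and neither did Npat (0.028), Lsm10 or Lsm11. Of 14 genes of the general cleavage and polyadenylation machinery, 1 was called higher and 3 lower (7.61% and 14.5% over all genes), with a median of -0.016, beside -0.0069 over all genes. Fip1l1 fell by 0.12, Cpsf7 by 0.15 and Cstf3 by 0.13 on the log2 scale, with adjusted p-values of 4.38e-09, 2.91e-05 and 9.74e-05. Clp1, a kinase of the cleavage complex, rose by 0.057 (adjusted p = 0.0121).

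Of 23 DNA replication genes of S phase, all tested, 3 were called higher and 2 lower, beside 7.61% and 14.5% of all genes, with a median of 0.00055. Tyms, thymidylate synthase, rose by 0.092 in 7 of 7 lines (adjusted p = 1.84e-06, limma), Mcm3, a subunit of the replicative helicase, by 0.043 (adjusted p = 0.000840), and E2f1, a transcription factor of the G1/S transition, by 0.076 (adjusted p = 0.00398). Ccne1, cyclin E1, fell by 0.059 (adjusted p = 0.00174), and Rrm2, a subunit of ribonucleotide reductase, by 0.033 (adjusted p = 0.0286), and under 9 of 57 other settings the list had 1 lower call in place of 2. Pcna, the replication clamp, did not pass, at 420.3 and 418 TPM. Of 12 H2A-H2B chaperones and enzymes of H2B ubiquitylation, 0 were called higher and 2 lower, where 7.61% of all genes were called higher and 14.5% lower. The 2 were Nap1l4, a nucleosome assembly protein (-0.051, adjusted p = 7.05e-06), and Ssrp1, a subunit of the FACT chaperone (-0.027, adjusted p = 0.0364), and under 24 of 57 other settings the list had 1 lower call.

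The genes most like each member were found by Pearson's r, as a description. Over the 7 DMSO line means, among 8775 genes, H2bc4 was most like H1f2 (0.966), followed by Dctn2, Srprb, Myl6 and Map2k1. H2bc21 was most like Slc27a4 (0.993), then Rnf181, Rpl41, Pdzd8 and Dnajc5, and H2bc12 was most like Psmd9 (0.976), then D330050I16Rik, Gng5, Gm14494 and Eaf1. Each of these values rests on 7 points. Over the 42 libraries after each line's mean was subtracted, which leaves mostly the treatment, H2bc4 was most like Luc7l (0.934), then Sdhaf4, Ccl25, Trmt6 and Pcyox1l. H2bc21 was most like Sat1 (0.929), then Dis3, Nprl3, Snhg17 and Pcyox1l. H2bc12 reached lower values, with Pofut2 (0.659), Ccsap, Mad2l2, Retsat and Srsf6 first. Luc7l encodes a U1 snRNP-associated protein, Sat1 a polyamine acetyltransferase and Dis3 a nuclease of the RNA exosome. Between the members, r over these libraries was 0.826 for H2bc4 and H2bc21, 0.582 for H2bc4 and H2bc12, and 0.40 for H2bc21 and H2bc12. All these libraries share the same treatment contrast, which also chose the members.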

How the data were processed

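RNA-seq libraries of polyadenylated RNA were made with a stranded mRNA kit, per the labels' protocols, and the authors deposited 1 table of TPM per library. HISAT2 2.2.0, RSEM 1.3.0 and the GRCm38 build are named in the submitters' processing notes; the gene annotation is not given in the sources used here. TPM keeps no depth, so no counting interval is given, and with 3 libraries per group precision rests on their spread. Tests used R 4.3.3 and limma 3.58.1 on log2(TPM + 1) (moderated variance with an intensity trend, 14 group means, genes averaging 1 TPM or more, two-sided, Benjamini-Hochberg over all genes tested, threshold 0.05); the tests were checked on simulated data. Differences understate the change of low genes. Baseline tests used the 21 DMSO libraries. Sequences and structures were matched by gene ID to GENCODE M21 (3 of 3) and RefSeq promoters (1 of 3), with Python 3.11.15. Replicate numbers were not treated as pairs: 3 of 21 same-numbered pairs correlated over 0.1, all in LLC (0.105, 0.299 and 0.176). With 3 same-numbered libraries per treatment, a replicate block cannot move the difference of a line. The LLC values of 1.45, 0.31 and 1.297 for H2bc4, H2bc21 and H2bc12 are thus unchanged by design and say nothing about these correlations. A block can change only the SE and the p-value. An F-test of the members' differences between lines, planned at first, is not used, because that contrast chose them. The genes named were the members, the 5 most like each by both measures, called list genes (at most 4 per list, plus Rrm2 and genes given as examples of no call, chosen after their values were seen) and H2B genes reaching 1 TPM in a line. Members and lists were chosen with earlier results of these data known. Alternatives were other pseudocounts, filters, scalings, no trend, a replicate block, and leaving out each library and each line.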

Additional observations from a re-analysis of the deposited data

Results flagged for a closer look

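The difference between RECTAS and DMSO was unequal between the 7 lines in an F-test with limma for 2 list genes called on the mean over lines. They were the linker histone gene H1f2 (mean difference 0.15 on the log2(TPM + 1) scale, higher in 5 of 7 lines, adjusted p of the F-test = 0.00881) and the cap-binding gene Ncbp2 (0.22, higher in 7 of 7 lines, adjusted p = 0.0201). Of all 13501 genes, 5.61% passed that F-test. It was also passed by list genes not called on the mean: H1f0, Ncbp1, Cpsf6 and H3f3b (adjusted p = 0.00342, 0.0130, 0.0238 and 0.0445, F-test with limma).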

How the results depend on the processing

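Over 49 results, 2593 values were computed under alternatives, of which 158 moved and 0 reversed. A reversal was counted only where a value also moved by more than the spread between libraries. Sign changes within that spread were not counted, such as that of H2bc12 in Pan02 (-0.15 to 0.041 with single libraries left out). Among the other 2435, tests kept their side of the threshold and differences moved by less than the spread between libraries. Counts only had to stay within a fixed factor of the main count. For example, the 810 genes called higher with 1 line left out, in place of 1027, are among the 2435. Many of the 2435 were fixed by design. The difference of 1 line cannot change when libraries of other lines are left out. H2bc4 in CT26, for example, stayed at 1.174 whichever other line was left out. Nor can the replicate block, the variance trend or the filter change such a difference. The count of 2435 is therefore no measure of how stable the results are. Lower pseudocounts raised the mean difference of H2bc4 to 1.24 (0.1) and that of H2bc21 to 0.70 (0.1) and 0.61 (0.5). The largest minus the smallest within-line difference rose to 1.04 (0.1) and 0.81 (0.5) for H2bc21 and to 1.885 (0.1) for H2bc12. When libraries or lines were left out it ranged from 0.48 (without WEHI3) to 0.96 for H2bc4 and from 0.98 (without LLC) to 1.70 for H2bc12. Quantile normalization called 1560 genes higher in place of 1027 (49.1% of calls higher in place of 34.5%, and 44.4% under median-ratio scaling). Small list counts moved: other H2B genes called higher were 1 without a filter. Lower calls went from 1 to 0 for the polyadenylated histone genes and for histone 3′ end processing under several settings, and from 2 to 1 for the replication genes and the chaperones. Higher calls of the polyadenylated histone genes reached 2 under median-ratio scaling, and those of cleavage and polyadenylation reached 2 under both scalings. Chaperones called higher were 1 under quantile normalization. With libraries or lines left out, higher calls ranged from 1 to 3 for the polyadenylated histone genes (3 without B16), from 0 to 2 for cleavage and polyadenylation, and from 1 to 2 for other replication-dependent histone genes, whose lower calls ranged from 0 to 1. The filter of a mean of 5 TPM left out H2bc12, so it gave no value there. With the replicate block 1071 genes were called higher and 1965 lower, the other replication-dependent histone genes had 1 lower call, the polyadenylated and 3′ end processing lists 0, and the chaperones 1. The same number correlated best in 6 of 21 cases, and the numbers are not known to mark shared cultures. The low level of H2bc12 and its shared words limit it most.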
